A study of Homo sapiens with 6 samples.

Results

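The replication-dependent histone genes of chromosome 6 lie in a larger and a smaller cluster, taken here as the hg19 spans chr6:26000000-26300000 (300 kb) and chr6:27750000-27880000 (130 kb). Every island of METTL14 ChIP-seq that overlapped either span was a member, whatever its read counts. There were 28 members among 38696 candidate islands of untreated cells, 21 in the larger and 7 in the smaller cluster. After DRB there were 58 among 67802, 41 in the larger and 17 in the smaller cluster. An island is a run of windows of 200 bp that the authors' peak caller, SICER, joined.

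Chromatin immunoprecipitation with an HA antibody was used in the hepatocellular carcinoma line HepG2, of human origin. All cells carried METTL14 with an HA tag at its N-terminus and EGFP at its C-terminus, introduced by lentivirus, selected with 1 µg/ml puromycin and sorted for high GFP, so the protein was overexpressed and tagged. Untreated cells gave 2 immunoprecipitated (IP) and 2 input libraries, and cells given 100 µM DRB for 3 h gave 1 of each. No IP from cells without the tag or with a control antibody was among the samples. So IP signal that is not due to METTL14 could not be told apart from binding. The files hold 1 combined IP count and 1 combined input count per island and condition, so replicate error could not be computed for any value. Whether the untreated replicates were separate cultures is not given in the labels. The reads are from genomic DNA, so the cell type could not be checked against expressed markers.

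METTL14 binds METTL3 to form the enzyme that places N6-methyladenosine on nascent RNA. Replication-dependent histone genes make the bulk of the histones that package new DNA and are transcribed mostly in S phase. They lack introns, and their mRNAs end in a stem-loop instead of a poly(A) tail. DRB inhibits CDK9, the kinase that releases paused RNA polymerase II into elongation. Comparing cells with and without DRB asks whether the METTL14 signal over these clusters differs when CDK9 is inhibited. Elongation on the histone genes themselves was not measured.

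The RefSeq gene table of GRCh38.p14 lists 55 protein-coding genes of the H1, H2A, H2B, H3 and H4 families on chromosome 6. In gene order they form a run of 32 genes from H1-1 to H4C8 and a run of 16 from H2BC13 to H2BC17, taken here as the genes of the larger and of the smaller cluster. The run of 32 held 5 linker histone H1 genes, 4 H2A, 8 H2B, 7 H3 and 8 H4 genes, and the run of 16 held 1, 5, 4, 3 and 3. A further 5 genes, from H2BC11 to H2AC12, lie between these runs, so the span between the clusters is not free of histone genes. The pair H2AC1 and H2BC1 precedes the run of 32. Because the gene table is of another build than the islands, no island was assigned to a gene, and islands are named by hg19 position.

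Upstream sequence was found in RefSeq (GRCh38.p14) for 50 of the 55 genes. The 250 bases before the start are shown as examples for 4 genes. These are the H2A, H2B, H3 and H4 gene that comes earliest in the run of 32, among those with a sequence. They do not stand for every gene of the clusters. Capitals mark matches on either strand. The TATA box was searched as TATAAA. The box that the factor NF-Y recognizes was searched as CCAAT. The octamer, known for its place in H2B promoters, was searched as ATTTGCAT. None of these motifs holds another of them.
H2AC4: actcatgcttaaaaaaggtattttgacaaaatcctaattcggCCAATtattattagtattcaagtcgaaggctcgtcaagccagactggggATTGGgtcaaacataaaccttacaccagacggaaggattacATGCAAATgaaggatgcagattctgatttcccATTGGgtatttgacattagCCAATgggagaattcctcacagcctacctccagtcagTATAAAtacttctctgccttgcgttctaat
H2BC3: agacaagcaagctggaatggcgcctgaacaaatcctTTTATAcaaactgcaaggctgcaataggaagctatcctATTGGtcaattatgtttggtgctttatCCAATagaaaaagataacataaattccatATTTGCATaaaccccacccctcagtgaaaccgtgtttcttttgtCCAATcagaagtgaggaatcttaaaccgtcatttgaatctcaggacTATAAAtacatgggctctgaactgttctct
H3C1: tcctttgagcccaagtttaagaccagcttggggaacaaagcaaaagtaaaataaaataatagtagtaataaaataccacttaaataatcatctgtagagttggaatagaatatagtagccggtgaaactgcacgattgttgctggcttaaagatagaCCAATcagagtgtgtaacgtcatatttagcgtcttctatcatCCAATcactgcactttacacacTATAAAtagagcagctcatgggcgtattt
H4C2: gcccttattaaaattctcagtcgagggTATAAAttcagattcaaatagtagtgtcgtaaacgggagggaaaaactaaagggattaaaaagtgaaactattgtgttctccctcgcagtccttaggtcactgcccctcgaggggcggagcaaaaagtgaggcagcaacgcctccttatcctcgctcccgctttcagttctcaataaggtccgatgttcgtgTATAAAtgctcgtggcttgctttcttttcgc
All 4 windows hold TATAAA shortly before the start. Of the 50 histone windows, 33 (66.0%) held TATAAA, 43 (86.0%) CCAAT and 22 (44.0%) the octamer, against 11.1%, 33.0% and 1.66% of the 27305 windows of all genes in the table. The families differed in these letters. The octamer stood in 9 of 11 H2A and 12 of 15 H2B windows, in 1 of 8 H3 windows, and in none of the 10 H4 or 6 H1 windows. CCAAT stood in all 11 H2A, 15 H2B, 8 H3 and 6 H1 windows but in 3 of 10 H4 windows. For 9 of the 11 H2A genes, the window shared at least 30 bases with the reverse complement of that of a neighbouring H2B gene on the other strand, the arrangement of divergent pairs that start transcription from 1 shared stretch of DNA. A motif inside such a shared stretch was counted in both windows, so the H2A and H2B counts are not independent. The median GC content of the 50 histone windows was 41.2%, against 58.0% for all genes. A match is a description of the letters and not a bound site.

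In untreated cells enrichment of IP over input was concentrated in a few wide islands of the clusters. The authors' deposited list of significant islands (false discovery rate, FDR, under 1e-04) held 7 of the 28 members, 25.0%, where 5.1% of all untreated candidates were on the list. Of these 7, 5 lay in the larger and 2 in the smaller cluster. They covered 137.2 kb, 47.2% of the length of all members, against 4.89% of the length of all candidates. In the span between the clusters the list held 5 of 74 untreated islands, 6.76%, and on the rest of chromosome 6 3.47%. The fold of an island is its IP count divided by its input count, multiplied by 1 constant per condition that the authors' table implies, and its brackets give exact 95% intervals that cover counting error only. An exact two-sided binomial test of IP against input reads, with Benjamini-Hochberg adjustment over all candidates of the condition, was applied to take in the counting error of the input. At an adjusted p of 0.05 it called IP above input in the same number of members, 7, all of them on the deposited list, against 5.45% of all candidates. IP below input was called in 0 members, against 0.0904% of all candidates. An unadjusted p under 0.05 in either direction was found in 13 of the 28 members, against 7961 of all 38696 candidates.

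The steepest island, chr6:26147601-26164400, was 16.8 kb wide and lay in the middle of the larger cluster. It held 1933 IP and 1271 input reads, a fold of 1.63 (1.52 to 1.75), with an adjusted p of 1.62e-39 in the exact binomial test. Its fold exceeded that of 98.9% of all untreated candidates, and it ranked 7 by fold among the 4983 candidates of at least 10 kb. By the authors' deposited FDR it ranked 19 among all islands.

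The widest member, chr6:26038601-26069200, spanned 30.6 kb with 2773 IP and 2284 input reads, a fold of 1.30 (1.23 to 1.38; exact binomial test, adjusted p = 4.24e-18). Between it and the steepest island lay chr6:26110601-26137800, 27.2 kb wide, with 2191 IP and 1891 input reads and a fold of 1.24 (1.17 to 1.32; exact binomial test, adjusted p = 1.40e-09). These 3 islands were the members whose adjusted p from the binomial test was also under 1e-04, a cut at which all candidates were not counted. The island chr6:26203001-26207600 was the narrow exception among the listed members, at 4.6 kb. It had 438 IP and 328 input reads, a fold of 1.43 (1.24 to 1.66), and an adjusted p of 1.11e-04 in the exact binomial test.

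The last listed island of the larger cluster, chr6:26213401-26233200, held 1308 IP and 1238 input reads and was barely enriched, at 1.13-fold (1.05 to 1.23). In the smaller cluster, chr6:27796601-27813600 had 1417 IP and 1286 input reads, a fold of 1.18 (1.10 to 1.28). Its neighbour chr6:27772401-27793600 had 1558 IP and 1488 input reads, a fold of 1.12 (1.05 to 1.21). The deposited FDR was 8.25e-05 at 26213401 and 6.50e-05 at 27772401, just under the authors' threshold, and both islands left the list at a 10 times lower FDR.

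**Figure D1:**
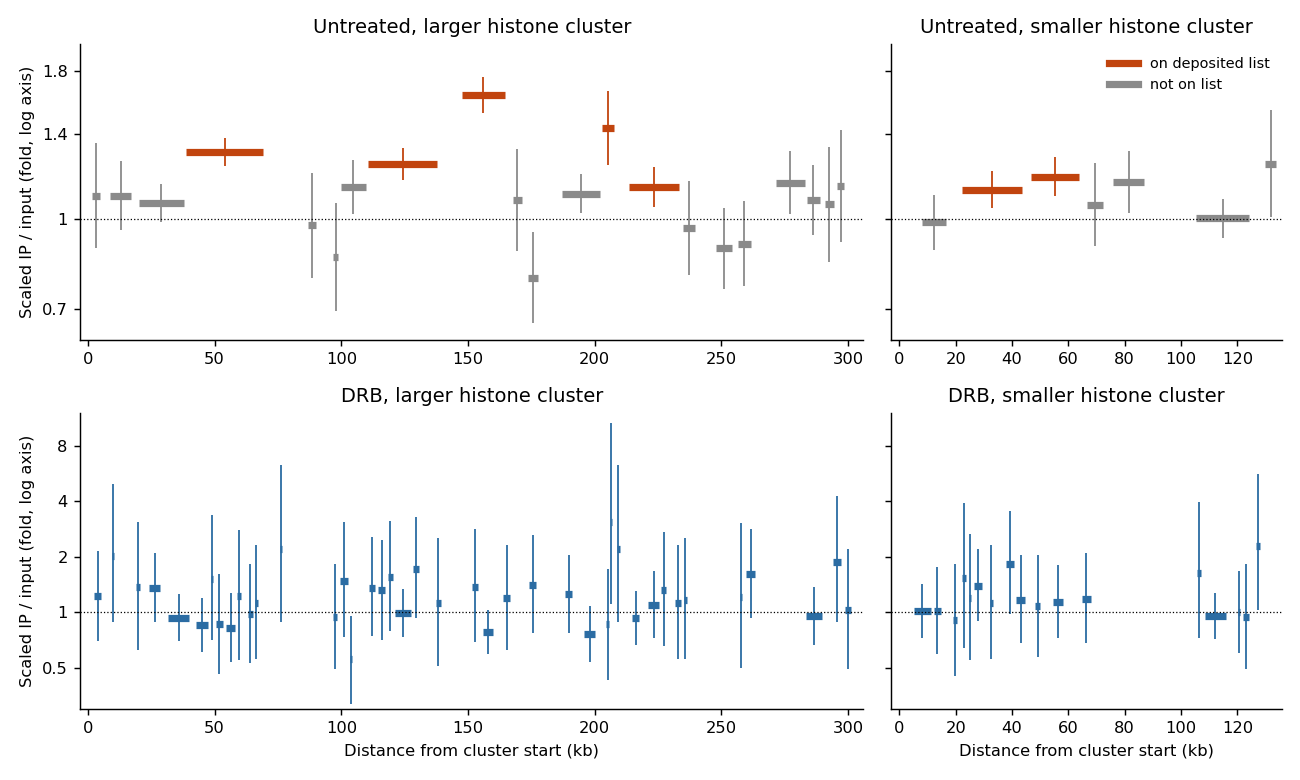
Candidate islands of the larger (left) and smaller (right) histone cluster in untreated cells (top) and after DRB (bottom), by distance from the cluster start in kb (x) and scaled IP over input on a log axis (y). Horizontal bars span each island and vertical lines are exact 95% counting intervals; the steepest untreated island stands at 1.63, and the DRB islands have intervals that mostly reach 1.

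The members not on the list stayed close to input. These 21 islands together held 9692 IP and 9909 input reads, a summed fold of 1.05 (1.02 to 1.08). The lowest fold was 0.793 (0.663 to 0.948) at chr6:26173601-26177600, with 218 IP reads against 295 input reads, and its adjusted p was 0.104 in the exact binomial test. The next lowest were 0.861 at 26096801, 0.891 at 26248001, 0.907 at 26256401 and 0.964 at 26234801, none of which passed the test. On the high side, chr6:27879801-27883800, which runs past the end of the smaller cluster, reached 1.24 (1.01 to 1.54) on 196 IP and 169 input reads and did not pass it (exact binomial test, adjusted p = 0.219). In all, 7 of the 28 members had more scaled input than IP reads, 25.0%, against 23.6% of all candidates.

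Width set the listed members apart from most others. Of the 28 members, 11 (39.3%) were at least 10 kb wide, against 12.9% of all untreated candidates and 16.2% of the 74 islands in the span between the clusters, chr6:26300000-27750000. Of those 11, 6 were on the deposited list, where 257 of the 4983 candidates of that width were (5.16%) and 1 of 12 in the span between. The 17 members under 10 kb included 1 listed island. Across the 28 members, fold was higher in wider islands (Spearman's rho 0.41), whereas across all candidates rho was -0.27. After DRB rho was -0.32 across the 58 members and -0.48 across the 67796 candidates with input reads. These points share the same libraries and depth, and a wide island reaches significance at a lower fold than a narrow one.

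**Figure D2:**
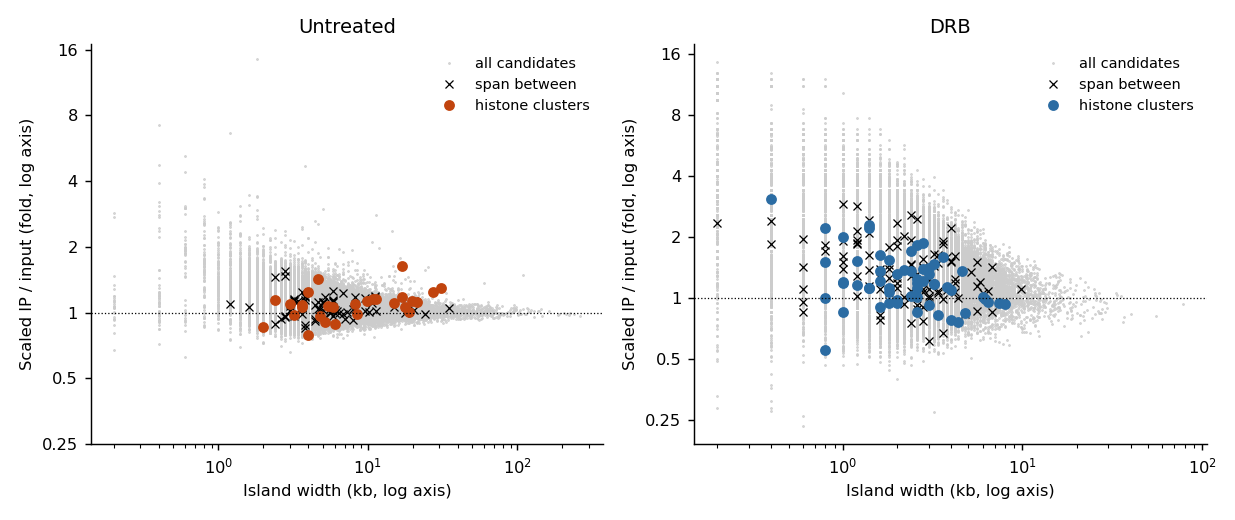
Island width in kb (x, log axis) against scaled IP over input (y, log axis) in untreated cells (left) and after DRB (right), for all candidates without the mitochondrial one (grey dots), the span between the clusters (crosses) and the histone clusters (large points). In untreated cells 11 of 28 cluster islands are at least 10 kb wide and the steepest of these stands at 1.63; after DRB the widest cluster island is 8.0 kb.

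Summed over all members, the clusters had 21310 IP and 19695 input reads and a fold of 1.16 (1.14 to 1.18). The larger cluster stood at 1.19 (1.16 to 1.22) and the smaller at 1.10 (1.06 to 1.14). The span between them had 30063 IP and 30421 input reads, a fold of 1.06 (1.04 to 1.08), and the rest of chromosome 6 had 1.05 (1.05 to 1.06). So the interval of the larger cluster lay above those of the other regions, and that of the smaller cluster overlapped that of the span between. Without the steepest island the sum over both clusters was 1.13 (1.11 to 1.15). The 7 listed members held 2498 of the 2955 IP reads by which the clusters exceeded their scaled input. The medians over islands were closer than the sums: 1.10 in the clusters, 1.05 in the span between and 1.07 on the rest of chromosome 6.

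The clusters were also dense in candidate islands and in input reads. Untreated islands covered 68.1% of the larger and 63.2% of the smaller cluster, against 34.4% of the span between. The median input density of the members was 68.1 reads per kb, against 61.2 in the span between, 50.8 on the rest of chromosome 6 and 52.3 over all candidates. Every untreated candidate held at least 43 IP reads, while input reads went down to 15. Every DRB candidate held at least 11 IP reads, while input reads went down to 0. So islands with fewer IP reads are absent from both conditions. The part of input density in the number of islands was not tested. No untreated member had an input density of 5 times the candidate median or more, and the share of all candidates that did was not counted. The copy number of chromosome 6 in these cells, which also moves read density, was not measured.

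**Figure D3:**
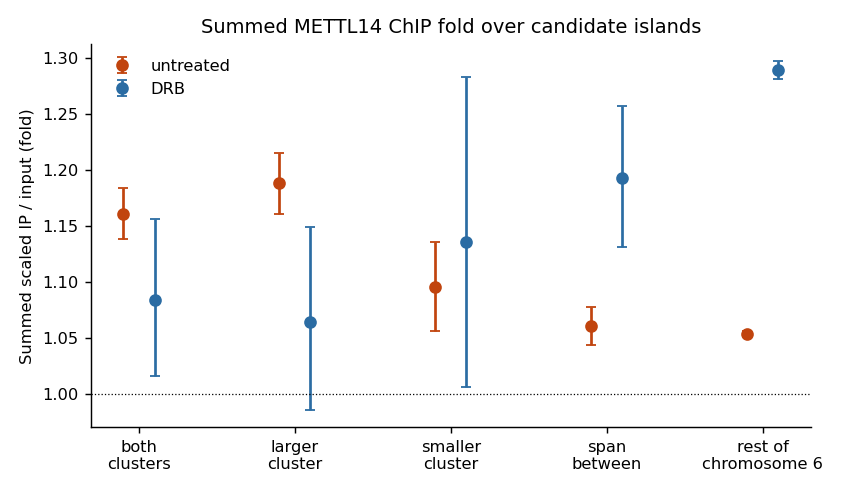
Scaled IP over input reads summed over the candidate islands of each region (y, linear axis not starting at 0) in untreated cells and after DRB, with exact 95% counting intervals. In untreated cells the larger cluster, at 1.19, stands above the span between, at 1.06; after DRB the larger cluster is at 1.06 and the span between at 1.19, with intervals that overlap.

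After DRB no cluster island was on the authors' deposited list, 0 of 58, where 4.76% of all DRB candidates were. In the span between the clusters 1 of 101 was listed, 0.990%, and on the rest of chromosome 6 3.47%. The exact binomial test also called 0 members above input, against 0.0118% of all DRB candidates, and 0 below it, against 0.0826%. An unadjusted p under 0.05 was found in 4 of the 58 members, against 10527 of all 67802 DRB candidates. The DRB members held a median of 25 IP and 19 input reads, where all DRB candidates held 21 and 13 and untreated members 435 and 419. In reads per kb of island, the DRB input of the clusters was 10.9 against 67.8 in untreated cells.

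The highest DRB folds rested on narrow islands with few reads. The island chr6:26206401-26206800 had 18 IP and 5 input reads, a fold of 3.10 (1.11 to 10.7), and the lowest deposited FDR of the DRB members, 1.85e-04. It lay within the listed untreated island at 26203001. In the smaller cluster, chr6:27876601-27878000 had 24 IP and 9 input reads, a fold of 2.30 (1.03 to 5.61). The islands at 26075801 and 26208601 both had 18 IP and 7 input reads, a fold of 2.21 (0.882 to 6.27), and that at 26009401 had 21 and 9, a fold of 2.01 (0.882 to 4.98). Of these 5 islands, the intervals of the last 3 included 1.

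The lowest DRB folds were found where input reads were dense, and those same reads divide the fold. At chr6:26103601-26104400, 24 IP reads stood against 37 input reads in 0.8 kb, a fold of 0.558 (0.320 to 0.958) that did not pass the exact binomial test (adjusted p = 0.302). Its input density of 46.2 reads per kb was 6.61 times the DRB candidate median of 7.0. The others were 0.766 at 26195801, 0.782 at 26155801, 0.824 at 26054601 and 0.849 at 26042601, with input densities of 16.6, 27.5, 13.8 and 15.4 reads per kb. The island at 26155801, with 100 IP and 110 input reads, lay inside the steepest untreated island. The widest DRB member, chr6:26031801-26039800, had 101 IP and 93 input reads and a fold of 0.935 (0.698 to 1.25). A DRB input density of at least 5 times the median was found in 2 of the 58 members. How many of all DRB candidates were that dense was not counted.

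Summed over all DRB members, 2110 IP reads stood against 1675 input reads, a fold of 1.08 (1.02 to 1.16), with 1.06 (0.986 to 1.15) in the larger and 1.14 (1.01 to 1.28) in the smaller cluster. The span between had 1.19 (1.13 to 1.26) and the rest of chromosome 6 had 1.29 (1.28 to 1.30). With the median fold of all DRB candidates set to 1, these sums fell below 1, to 0.720 in both clusters together and 0.792 in the span between. The exact binomial test then called 4 members below input. How many of all DRB candidates it called under that scaling was not counted, so the 4 cannot be read against a share. The median fold per island was 1.18 in the clusters, 1.35 in the span between and 1.46 on the rest of chromosome 6. Between the clusters the medians, 1.20 in the larger and 1.14 in the smaller, were in the opposite order to the sums. Over all DRB candidates the summed fold was 0.761 and the median 1.51. In that sum 1 island alone held 1396131 of the 2726149 input reads, so it is not a level to read the clusters against. The median input density was 9.63 reads per kb in the clusters, 8.0 in the span between and 7.0 over all candidates, and its part in the lower folds was not tested. DRB islands lay mostly where untreated islands did: 53 of the 58 members (91.4%) overlapped an untreated candidate, against 52.1% of all DRB candidates. From the other side, 22 of 28 untreated members (78.6%) had a DRB island over them, against 61.1% of all untreated candidates. In the span between, 59 of the 74 untreated islands had DRB islands over them, about as large a share as in the clusters. These were 78 DRB islands, where the span held 101. So this overlap was not particular to the clusters. The part of the denser island coverage of the clusters in it was not tested.

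The change with DRB was tested at each of the 22 untreated members that had DRB islands over them, by a two-sided exact test on the 4 counts conditional on their margins, with Benjamini-Hochberg adjustment over all 23639 such islands of the series. The reads of all DRB islands over an untreated island were summed. The DRB fold was lower in 2 members, both listed and both in the larger cluster, where 0.474% of all such islands were called lower. It was higher in 0 members, where 0.106% were called. An unadjusted p under 0.05 was found in 3 of the 22 members, against 2342 of the 23638 such islands without the mitochondrial one. With the median fold of each condition set to 1, 6 members were called lower, where 982 islands of the series were.

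At the steepest untreated island, chr6:26147601-26164400, the 3 DRB islands held 149 IP and 143 input reads, a fold of 0.897 (0.708 to 1.14). The DRB fold was 0.550 (0.429 to 0.704) times the untreated fold of 1.63 (exact conditional test, adjusted p = 5.66e-04). At the widest island, chr6:26038601-26069200, 8 DRB islands held 326 IP and 299 input reads, a fold of 0.938 (0.800 to 1.10), which was 0.720 (0.608 to 0.854) times the untreated one (exact conditional test, adjusted p = 0.0239). This call was lost, at a ratio of 0.763 (exact conditional test, adjusted p = 0.0982), when each condition was scaled to a summed fold of 1 in islands of at least 10 kb. It was lost at 0.722 (exact conditional test, adjusted p = 0.145) when only DRB islands lying at least 50% inside the untreated one were used. DRB islands covered 39.3% of the steepest and 58.2% of the widest island, so untreated and DRB folds rest on different stretches of DNA.

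The other 5 listed members did not pass the test. At 26110601 the DRB fold was 1.20 (0.982 to 1.47), 0.967 (0.782 to 1.20) times the untreated one. At 26203001 the ratio was 0.926 (0.528 to 1.65), at 26213401 it was 0.919 (0.724 to 1.17) and at 27796601 it was 0.945 (0.654 to 1.37). At 27772401, in the smaller cluster, the DRB fold of 1.36 (1.07 to 1.73) gave a ratio of 1.21 (0.937 to 1.56). All 5 intervals include 1. The interval at 26038601, 0.608 to 0.854, overlapped those at 26110601, 26203001, 26213401 and 27796601, and that at 27772401 lay above it. Differences in ratio between islands were not tested.

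Over the 7 listed members together, 11618 IP and 9786 input reads gave an untreated fold of 1.27 (1.24 to 1.31), and the 31 DRB islands over them held 1178 IP and 952 input reads, a fold of 1.07. The DRB fold was 0.836 (0.764 to 0.915) times the untreated one. The 15 members that were not listed and had DRB islands over them gave 1.04 untreated and 1.06 with DRB, a ratio of 1.02 (0.920 to 1.13). Listing was decided by an FDR computed from the same untreated counts that enter the ratio, so the ratio of the listed members is a description. Of the 1973 listed untreated islands of the series, 1031 had DRB islands over them, as did all 7 of the clusters. Over these 1031 the median ratio was 0.895 and 61.6% were lower with DRB. In the clusters the median of the 7 was 0.926 and 6 were lower. Over all 22 members the reads pooled to a ratio of 0.916 (0.855 to 0.981), with 0.874 (0.805 to 0.948) in the larger cluster, 1.03 (0.907 to 1.18) in the smaller and 1.07 (1.01 to 1.14) over the 59 islands of the span between. The median ratio per island lay on the other side of 1 in the clusters, at 1.02, and was 1.16 in the span between and 1.22 over all pairs without the mitochondrial one.

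**Figure D4:**
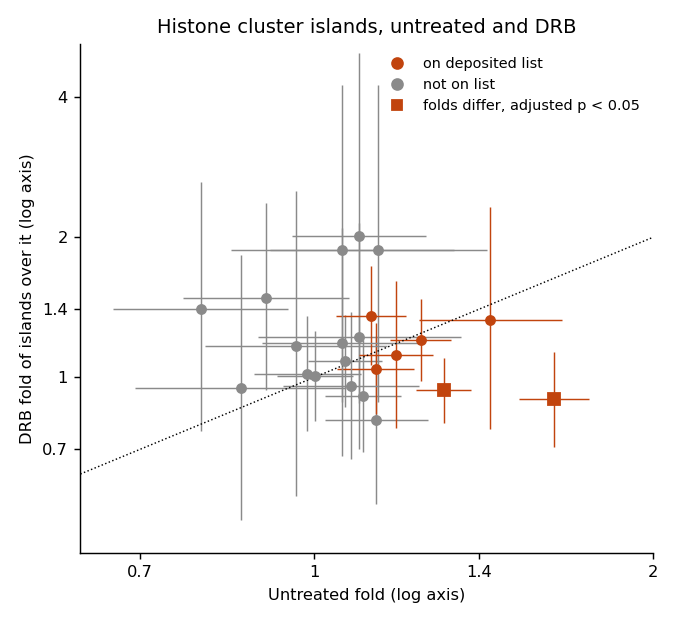
Untreated fold (x, log axis) against the fold of the DRB islands over the same untreated island (y, log axis) for the 22 cluster islands with both, with exact 95% counting intervals and a dotted line of equal folds. Squares mark the 2 islands called lower with DRB, at DRB folds of 0.897 and 0.938.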

How the data were processed

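Per the submitters' processing notes, the tools were Bowtie 1.1.2, FastQC 0.11.5 and SICER (no version), on hg19. How windows, gaps and replicates were handled was not given in the sources used here. The deposited counts are whole IP and input reads per island, not normalized. The authors' deposited fold (a ratio) equals IP over input reads times 1.07 (untreated) or 0.861 (DRB). The deposited p-value matched, to within 1% at every island with input reads, a Poisson probability that treats scaled input as free of error. Each deposited list equalled the islands of FDR under 1e-04. The untreated islands held 15339872 IP and 16034656 input reads, the DRB islands 2411436 and 2726149.

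Members, lists and tests were chosen with earlier results of these data known. Named islands were all listed or called members, the 5 of highest and lowest fold per condition (input of at least 20 untreated, 5 with DRB) and the widest. Positions are 1-based hg19. Runs of histone genes were split where more than 5 other genes intervened. The binomial and conditional tests were tested on simulated data. Islands are not replicates, reads are not independent molecules, and all p-values compare these libraries. Alternatives were a lower FDR, other scalings, membership by midpoint, leaving out dense input, and other overlap rules. Tools were SciPy 1.17.1, pandas 2.3.3, matplotlib 3.10.9 and numpy 2.4.6 under Python 3.11.15.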

Additional observations from a re-analysis of the deposited data

Results flagged for a closer look

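At 2 untreated islands of the larger histone cluster the fold differed between the conditions by the exact conditional test with Benjamini-Hochberg adjustment over all islands with both values. The DRB fold was 0.7204 times the untreated fold at 26038601 and 0.5496 times at 26147601. The interval of the first ratio was 0.608 to 0.854 and that of the second 0.429 to 0.704, from counting error only.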

How the results depend on the processing

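No paired analysis was possible because the files hold the 2 untreated replicates combined, so leaving out a replicate could not be run either. Of the 7 listed untreated members, 5 stayed at a 10 times lower FDR and 3 had an adjusted p under 1e-04 in the binomial test. The shares of all candidates that passed these stricter cuts were not counted. Whether the clusters stand as far above the other candidates there cannot be read from these counts. Setting the median fold of all candidates to 1 lowers every fold, from medians of 1.08 untreated and 1.51 with DRB. It left 4 untreated members above input and put 1 below, and put 4 DRB members below. The shares of all candidates called by the binomial test under this scaling were not counted, so these counts describe the members only. Untreated sums became 1.08 (both clusters), 1.10 (larger), 1.02 (smaller) and 0.983 (span between), and DRB sums 0.720, 0.706, 0.754 and 0.792. With islands of at least 10 kb set to a summed fold of 1, untreated sums were 1.13 (both), 1.15 (larger) and 1.03 (span between). Each scaling multiplies all sums of a condition by 1 constant, so it cannot change the order of the regions. Members called lower with DRB numbered 2 of 22, where 112 of the 23639 islands of the series were called lower and 25 higher. With the median set to 1 there were 6, where 982 islands of the series were called lower and 2 higher. With wide islands set to 1 there was 1, where 86 islands of the series were called lower and 95 higher. So the balance of lower and higher calls over the series changed with the scaling. With DRB islands at least 50% inside the untreated one, 1 of 19 members was called lower, where 101 of 21635 islands of the series were. With 50% reciprocal overlap it was 0 of the 4 pairs left, where 68 of 7548 were. For the DRB comparison, the scaling on wide islands and the rule on lying inside were chosen after seeing the data. The island at 26147601 was called lower in every setting in which it had a value (exact conditional test, adjusted p from 1.52e-11 to 0.00370), while at 26038601 the adjusted p of that test ran from 2.64e-12 to 0.145. With the median set to 1, 26110601 (0.692) and 26213401 (0.658) were called lower too. Membership by midpoint moved no count of members on the list or called by the binomial test, and neither it nor leaving out dense input moved a sum beyond its interval. The DRB depth, with a median of 19 input reads in the members, limits what could be detected there.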
